A study of Mus musculus with 4 samples.

Results

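A set of 9 genes were followed that encode enzymes acting on retinol, retinal and related alcohols and aldehydes. They were the alcohol dehydrogenases Adh1, Adh5 and Adh7, the retinol and retinal dehydrogenases or reductases Rdh10, Dhrs3 and Rdh11, and the retinal dehydrogenases Aldh1a1, Aldh1a2 and Aldh1a3. These 9 of 27357 listed genes were chosen by symbol, and the family was picked because of the difference that Adh1 showed between the genotypes in these same libraries. The differences of the members between genotypes are therefore given as descriptions, without a test.

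The RNA came from Leydig cells, which make testosterone between the seminiferous tubules of the testis, of male mice. One group was wild type (WT) and the other carried a knockout of C2orf74 (KO), with 2 libraries each. Both groups received a high-fat diet for 12 weeks, begun when the mice were 8 weeks old, so there is no group on another diet here. By its title, the series concerns the part of C2orf74 in crosstalk between the germ line and Leydig cells and in white fat. The sources used here do not give the strain, the way the knockout was made or how the cells were purified. The labels do not state that the libraries of a genotype came from separate animals. Every SD, standard error and p-value therefore rests on spread between libraries, which may be technical. The limma standard errors and p-values also draw on the spread of other genes, so they do not measure a gene's own spread alone.

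Levels are RPKM, reads scaled to exon length and library depth. The libraries held 13847807 to 19764004 reads, and 12391 genes reached 1 RPKM or more in at least 2 libraries and were tested. The mouse gene taken to be C2orf74, 1700093K21Rik, had 4 reads in the second WT library and was listed at 0 in the other libraries, so at this depth it cannot check the genotype labels. Over the tested genes the median absolute difference between the KO libraries was 0.144 on the log2(RPKM + 1) scale, against 0.1 between the WT libraries. No gene passed a Benjamini-Hochberg FDR of 0.05 in limma (0% of tested genes), while at an unadjusted p under 0.05 KO was above WT for 536 genes (4.33%) and below it for 919 (7.42%); with quantile normalization these were 662 and 749. Without the first KO library 306 genes passed the FDR, and without the second 139 did, but the KO group is then 1 library whose spread is taken from the WT pair.

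Retinol, the alcohol form of vitamin A, is oxidised reversibly to retinal, and retinal is oxidised irreversibly to retinoic acid, which acts through nuclear receptors. Cytosolic alcohol dehydrogenases and membrane-bound short-chain dehydrogenases carry out the first step, and the ALDH1A enzymes the second. Some short-chain enzymes work mainly in the reverse direction and return retinal to retinol. In the testis, retinoic acid is best known for its role in the entry of germ cells into differentiation and meiosis.

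The promoters of Adh1, Adh5, Aldh1a1 and Aldh1a2 are shown because these are the most abundant alcohol dehydrogenases and retinal dehydrogenases here. Adh1 and Adh5, of the same gene cluster, also differed in behaviour, and a link between promoter and level was not tested. The sequences are from RefSeq on GRCm38.p6, run from 250 bases before to 50 bases after an annotated start, and are on the plus strand. Of the 9 genes, 7 matched this collection and Aldh1a3 and Rdh10 are named only. Capitals mark GC boxes (GGGCGG, here as its complement CCGCCC) in Adh5 and the octamer ATGCAAAT and CCAAT in the aldehyde dehydrogenases. RefSeq gives more than 1 start for Adh5 and Aldh1a1, and 1 window of each is shown. The windows shown for Adh1 and Aldh1a1 lie inside the gene spans given below, downstream of the start of the span. The 4 windows are chr3:138277335-138277634 for Adh1, chr3:138442843-138443142 for Adh5, chr19:20601718-20602017 for Aldh1a1 and chr9:71215539-71215838 for Aldh1a2.
Adh1: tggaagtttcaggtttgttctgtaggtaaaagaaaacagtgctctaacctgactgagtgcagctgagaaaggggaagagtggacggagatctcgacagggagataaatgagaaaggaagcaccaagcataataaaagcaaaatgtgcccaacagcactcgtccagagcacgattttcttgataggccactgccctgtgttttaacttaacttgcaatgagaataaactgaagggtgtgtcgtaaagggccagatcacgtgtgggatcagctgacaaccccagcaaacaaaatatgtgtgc
Adh5: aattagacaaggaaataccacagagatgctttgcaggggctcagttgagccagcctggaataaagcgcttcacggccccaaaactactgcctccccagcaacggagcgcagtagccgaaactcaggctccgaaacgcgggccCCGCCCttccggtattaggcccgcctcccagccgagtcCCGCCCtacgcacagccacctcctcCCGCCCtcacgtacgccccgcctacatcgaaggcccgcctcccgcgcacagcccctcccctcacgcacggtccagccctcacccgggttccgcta
Aldh1a1: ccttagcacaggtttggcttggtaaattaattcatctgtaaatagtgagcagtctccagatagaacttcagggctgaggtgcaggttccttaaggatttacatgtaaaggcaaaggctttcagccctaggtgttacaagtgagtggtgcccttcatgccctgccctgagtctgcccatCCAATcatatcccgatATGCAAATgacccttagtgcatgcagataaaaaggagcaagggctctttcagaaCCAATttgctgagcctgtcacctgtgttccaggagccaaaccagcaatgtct
Aldh1a2: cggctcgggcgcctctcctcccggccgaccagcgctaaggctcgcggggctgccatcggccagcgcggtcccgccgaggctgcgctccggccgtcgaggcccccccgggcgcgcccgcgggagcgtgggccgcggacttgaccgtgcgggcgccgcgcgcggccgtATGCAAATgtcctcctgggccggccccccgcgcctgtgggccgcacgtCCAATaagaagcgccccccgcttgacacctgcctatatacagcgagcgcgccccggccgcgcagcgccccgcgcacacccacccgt

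The Adh1 window held none of the motifs searched on both strands and had a GC content of 45.3%, against a median of 52.7% over 32851 promoters of the same length. The Adh5 window was richer in GC, at 65.0%, and held 3 GC boxes, a motif found in 35.66% of all promoters. The windows shown for Aldh1a1 and Aldh1a2 both held the octamer, which 1.74% of all promoters hold, and both held CCAAT, which 37.41% hold. CCAAT was also in promoters of Adh7, Dhrs3 and Rdh11. The octamer began 56 bases before the start used for the Aldh1a1 window and 84 bases before that of the Aldh1a2 window. The other Aldh1a1 promoter, chr19:20492333-20492632, next to the start of the gene span, held neither motif. Both motifs were added to the search after the sequences had been seen. AGGTCA, the half-site of many nuclear receptors including the retinoic acid receptors, occurred in 16.26% of all promoters and, among the member promoters, in one of Rdh11. Direct repeats of AGGTCA with 5 bases or 1 base between the copies were in 3 and 13 of all promoters, respectively, and in none of the member promoters. TATAAA, in 13.62% of all promoters, was in another promoter of Adh5 and in that of Adh7. A matching motif is a description of these letters and not of a bound factor.

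Adh1 (ENSMUSG00000074207), the class I alcohol dehydrogenase that oxidises ethanol and retinol, lies on the plus strand at chr3:138260991-138290698 (GENCODE M21, GRCm38). Its level was 59.3 and 68.8 RPKM in the WT libraries and 111 and 173 RPKM in the KO libraries. Both KO libraries lay above both WT libraries, and the KO libraries also lay apart from each other. The mean was 64.0 ± 6.73 RPKM (SD, n = 2) in WT and 142 ± 44.1 RPKM (SD, n = 2) in KO, a ratio of 2.22. On the log2(RPKM + 1) scale the difference was 1.11 with a limma standard error of 0.23. The first KO library lay 0.79 and the second 1.43 above the WT mean on this scale.

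The reads behind Adh1 numbered 1833, 2430, 3885 and 7644 in the first and second WT and the first and second KO library. Exact Poisson 95% intervals were 107.4 to 114.4 RPKM in the first KO library and 169.3 to 177.1 RPKM in the second. These intervals cover counting error only, and they do not meet, so the gap between the KO libraries was larger than counting error. That gap was 0.64 on the log2(RPKM + 1) scale. Of the 7373 tested genes with a mean of at least 5 RPKM, 3.4% had one as large. An exact two-sided permutation test of 2 against 2 libraries cannot give a p below 0.333. In bulk RNA, a change in the number of cells of a type and a change in RNA per cell cannot be told apart.

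Adh5, the class III enzyme, which acts chiefly on formaldehyde bound to glutathione, lies downstream in the same orientation (ENSMUSG00000028138, chr3:138443093-138455499). Its level was 31.2 and 31.5 RPKM in WT and 34.9 and 33.1 RPKM in KO. The KO libraries lay above the WT libraries by a small margin, with a log2 difference of 0.11 ± 0.08 (limma standard error). The ratio of Adh1 to Adh5 within a library was 1.9 and 2.18 in WT and 3.18 and 5.23 in KO. Adh1 made up 65.5% and 68.5% of the summed RPKM of Adh1, Adh4, Adh5, Adh6a, Adh6b and Adh7 in WT. In KO its share was 75.9% and 83.7%.

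Adh7, the class IV enzyme of stomach and other epithelia with a high activity on retinol, had 6, 2, 6 and 27 reads in the 4 libraries (ENSMUSG00000055301, chr3:138217760-138233382). These correspond to 0.114 and 0.0334 RPKM in WT and 0.101 and 0.361 RPKM in KO. It did not reach 1 RPKM in any library and was not tested, and its groups overlapped. Over the 237.7 kilobases that hold the 7 Adh-named genes of the cluster, 5 stayed under 1 RPKM in every library, namely Adh7, Adh6a, Adh6b, Adh4 and the pseudogene Adh6-ps1. Adh4 and Adh6-ps1 were listed at 0 in all libraries. The end of Adh1 and the start of Adh5 are 152.4 kilobases apart, with the 4 low genes between them.

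**Figure D1:**
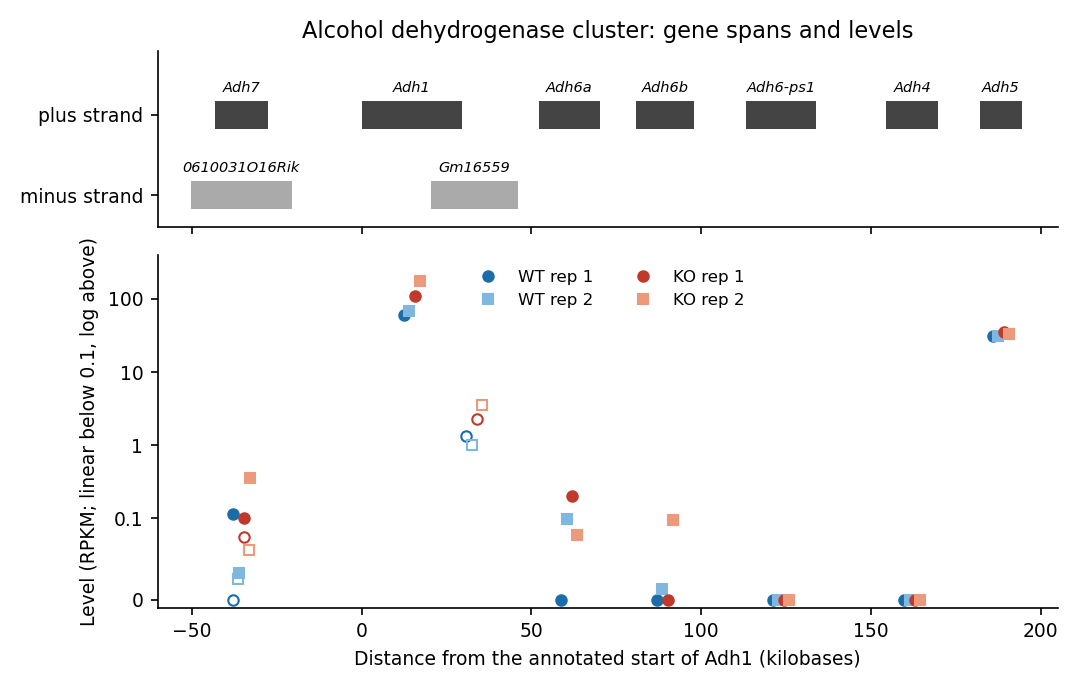
The upper panel draws the gene spans of the alcohol dehydrogenase cluster by strand, by distance in kilobases from the annotated start of Adh1. The lower panel gives the RPKM of each gene in each library on an axis that is linear below 0.1 and logarithmic above, with open symbols for minus-strand genes. Adh1 and Adh5 are the only Adh genes above 1 RPKM, and the KO libraries stand above WT at Adh1 with 111 and 173 RPKM.

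The annotated antisense gene Gm16559 (chr3:138281408-138307022, minus strand) overlaps 136 exonic bases of Adh1, 6.09% of its exons. Gm16559 stood at 1.34 and 1.01 RPKM in WT and 2.28 and 3.49 RPKM in KO, or 1.47% to 2.26% of the Adh1 level in the same library. The sources used here do not say whether strand was used in counting. Reads over the shared bases therefore cannot be told apart. Coding sequences of Adh1 were 66.1% identical to those of Adh5 and 69.1% to those of Adh7. Of the 50-base windows of Adh1, 2.11% also occur in another gene.

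Rdh10, the membrane-bound enzyme that makes much of the retinal for retinoic acid synthesis in mouse embryos, was even across libraries (ENSMUSG00000025921, chr1:16105774-16133734, plus strand). Its level was 3.07 and 3.07 RPKM in WT and 2.94 and 2.88 RPKM in KO. Both KO libraries were slightly below WT, with a log2 difference of -0.06 ± 0.10 (limma standard error).

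Dhrs3, which reduces retinal to retinol, stood at 52.8 and 57.6 RPKM in WT and at 82.0 and 59.4 RPKM in KO (ENSMUSG00000066026, chr4:144892827-144928209, plus strand). The groups did not overlap, but the second KO library was close to WT: the first was 0.56 and the second 0.10 above the WT mean on the log2(RPKM + 1) scale. The difference of means was 0.33 ± 0.17 (limma standard error). Dhrs3 was thus highest in the KO library in which Adh1 was the lower of the pair.

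Rdh11, a reductase of retinal and other aldehydes, stood at 14.5 and 15.6 RPKM in WT and 15.6 and 17.7 RPKM in KO (ENSMUSG00000066441, chr12:79174337-79192293, minus strand). The second WT and the first KO library lay next to each other. Its log2 difference was 0.14 ± 0.10 (limma standard error). The level of Dhrs3 relative to the sum of Rdh10 and Rdh11 was 3.0 and 3.09 in WT and 4.42 and 2.88 in KO, so this ratio was raised in 1 of the 2 KO libraries. Identity of coding sequence among Dhrs3, Rdh10 and Rdh11 lay between 54.0% and 57.6%, and none of their 50-base windows occurs in another gene.

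Aldh1a1, a cytosolic retinal dehydrogenase, was by far the most abundant member (ENSMUSG00000053279, chr19:20492715-20643465, plus strand). Its level was 1515 and 1615 RPKM in WT and 1867 and 1617 RPKM in KO, and it ranked 13 among the 12391 tested genes by its WT level. The second WT and the second KO library were nearly equal, and the first KO library stood above the rest. The log2 difference was 0.15 ± 0.16 (limma standard error). Its paralog Aldh1a7 is 91.6% identical in coding sequence, and 3.06% of the 50-base windows of Aldh1a1 and 7.49% of those of Aldh1a7 are shared, so the split of reads between them is uncertain. The ratio of Aldh1a7 to Aldh1a1 was between 0.29 and 0.341 in all 4 libraries.

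Aldh1a2, the main retinoic acid-making enzyme of the mouse embryo, stood at 40.9 and 41.3 RPKM in WT (ENSMUSG00000013584, chr9:71215789-71296243, plus strand). It stood at 33.5 and 60.0 RPKM in KO. The KO libraries fell on opposite sides of the WT pair, with differences of -0.29 and 0.53 from its mean on the log2(RPKM + 1) scale. The gap of 0.82 between them was reached by 1.7% of the 7373 tested genes with a mean of at least 5 RPKM. The mean difference of 0.12 ± 0.27 (limma standard error) therefore describes neither library.

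Aldh1a3, the third retinal dehydrogenase, was low and lay lower in KO (ENSMUSG00000015134, chr7:66390890-66427517, minus strand). Its level was 3.1 and 3.59 RPKM in WT and 1.66 and 0.986 RPKM in KO, from 198, 262, 120 and 90 reads. Both KO libraries lay below both WT libraries, and the ratio of means was 0.395. The log2 difference was -0.92 ± 0.18 (limma standard error) with a pseudocount of 1. With a pseudocount of 0.1 it was -1.31, since the larger pseudocount understates the change of a gene at this level.

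Aldh1a1 accounted for 96.4% to 98.1% of the summed RPKM of the 3 ALDH1A genes in every library. Aldh1a2 made up 2.62% and 2.49% in WT and 1.76% and 3.58% in KO. Aldh1a3 made up 0.199% and 0.216% in WT and 0.0871% and 0.0588% in KO. Aldh1a1 stood 25.6 and 23.5 times above Adh1 in WT, and 16.8 and 9.3 times above it in KO.

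**Figure D2:**
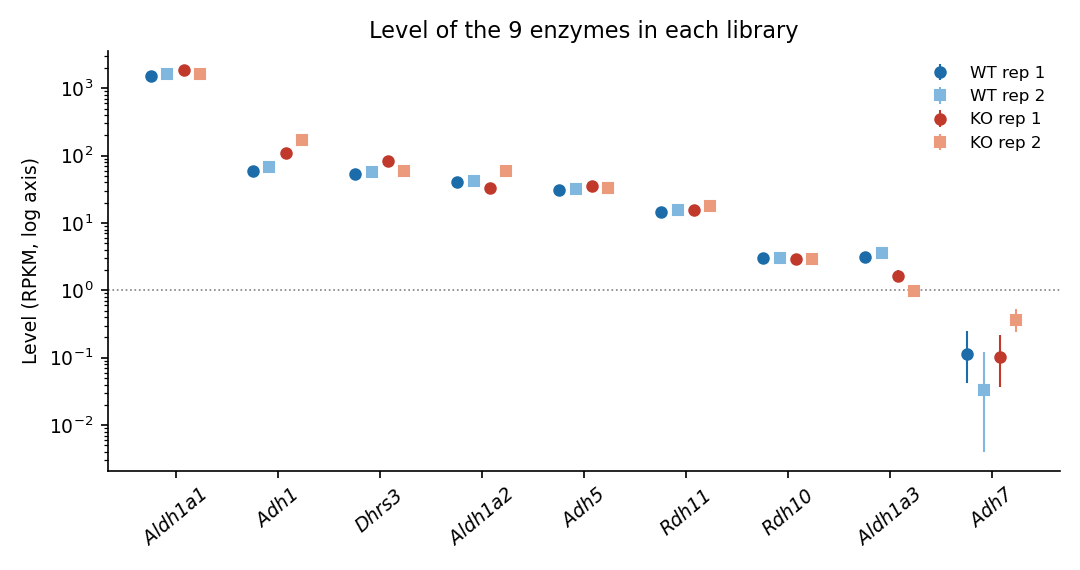
Levels in RPKM on a logarithmic axis are given for the 9 genes in each of the 4 libraries, with exact Poisson 95% intervals (counting error only) as bars and a dotted line at 1 RPKM. Adh1 stands higher in both KO libraries and Aldh1a3 lower, whereas the KO libraries of Aldh1a2 lie on either side of WT, at 33.5 and 60.0 RPKM.

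By mean RPKM in WT the order of the members was Aldh1a1, Adh1, Dhrs3, Aldh1a2, Adh5, Rdh11, Aldh1a3, Rdh10 and Adh7. No neighbours in this order overlapped in their WT libraries, but Adh1 with 59.3 RPKM and Dhrs3 with 57.6 RPKM came close, as did Aldh1a3 with 3.1 RPKM and Rdh10 with 3.07 RPKM. In KO the libraries of Aldh1a2 overlapped those of Dhrs3 and of Adh5, and Rdh10 stood above Aldh1a3.

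Of the 8 members tested, 5 were higher in both KO libraries than in both WT libraries, 2 were lower and 1 overlapped. Among all tested genes 19.7% were higher and 25.0% lower without overlap. Because the contrast chose the members, nothing is read from these counts. Adh1 and Aldh1a3 had the largest differences among the 8, and the absolute log2 differences of the other 6 lay at 0.33 or below.

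The wider pathway was described with 63 further genes, of which 3 were not analysed here. Of the 60 in the table, 29 were tested and 31 did not pass the filter, the highest of them reaching 1.05 RPKM. Of the 29, KO was above WT for 16 and below it for 13, and their median log2 difference was 0.01 against -0.02 over all tested genes. At an unadjusted limma p under 0.05, 2 were higher and 3 lower, which is 17.2% against 11.7% of all tested genes, and 0 passed an FDR of 0.05. This count depended on single libraries: it changed when 1 library was left out, and so did the share over all tested genes.

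The 2 higher genes of the wider pathway at an unadjusted p under 0.05 were Scarb1 and Aldh6a1. Scarb1, a receptor for lipoproteins that also takes up carotenoids, stood at 70.1 and 69.2 RPKM in WT and 85.7 and 86.4 RPKM in KO, with a log2 difference of 0.30 and a limma adjusted p of 0.301. Aldh6a1, a mitochondrial enzyme of valine breakdown, stood at 25.0 and 24.7 RPKM in WT and 30.0 and 29.3 RPKM in KO, with a log2 difference of 0.24 and a limma adjusted p of 0.35. Both genes were tight within each pair of libraries.

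The 3 lower genes were Fabp5, Aldh3a1 and Aldh18a1. Fabp5, a fatty acid-binding protein that can also carry retinoic acid, stood at 18.6 and 16.9 RPKM in WT and 12.1 and 11.7 RPKM in KO, with a log2 difference of -0.54 and a limma adjusted p of 0.173. Aldh3a1, an oxidiser of aromatic and fatty aldehydes, stood at 8.33 and 9.47 RPKM in WT and 5.61 and 3.52 RPKM in KO, with a log2 difference of -0.86 ± 0.20 (limma standard error) and a limma adjusted p of 0.273. Aldh18a1, which makes a precursor of proline, stood at 10.4 and 9.55 RPKM in WT and 8.26 and 8.03 RPKM in KO, with a log2 difference of -0.26 and a limma adjusted p of 0.365. None of the 5 passed the FDR.

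Of the other alcohol dehydrogenases, 0 of 3 passed the filter, Adh6a and Adh6b being the higher ones. Of the other retinol dehydrogenases 3 of the 12 in the table were tested, led by Rdh14 at 24.7 and 30.5 RPKM in WT and 24.0 and 25.4 RPKM in KO. Dhrs4 stood at 14.0 and 13.8 RPKM in WT and 14.9 and 13.2 RPKM in KO. All 15 other aldehyde dehydrogenases were tested. KO was higher for 11 and lower for 4 of these, against 5729 and 6662 of all 12391 tested genes. Without overlap 4 were higher and 3 lower, against 19.7% and 25.0% of all tested genes. At an unadjusted limma p under 0.05, 1 was higher and 2 were lower. Some of the 11, such as Aldh2, lay above the WT mean in the first KO library only. The median log2 difference of the 15 was 0.05. Aldh1a7 led them with 515 and 468 RPKM in WT and 637 and 541 RPKM in KO, followed by the mitochondrial acetaldehyde oxidiser Aldh2 with 199.5 and 212 RPKM in WT and 244.5 and 187.5 RPKM in KO. Aldh1a7 did not overlap between genotypes, with a limma adjusted p of 0.534, whereas the KO libraries of Aldh2 lay on either side of WT.

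The aldehyde oxidases, which can also oxidise retinal, split the KO libraries. Aox3 stood at 12.5 and 13.7 RPKM in WT and at 26.6 and 7.58 RPKM in KO, with differences of 0.97 and -0.71 from the WT mean on the log2(RPKM + 1) scale. Aox1 stood at 20.2 and 22.3 RPKM in WT and 26.6 and 15.5 RPKM in KO. Both genes were highest in the first KO library and lowest in the second, whereas Adh1 and Aldh1a2 were higher in the second KO library than in the first.

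Only 4 of the 15 uptake, binding and storage genes were tested. The receptors Rara, Rarg, Rxra and Rxrb were tested and all overlapped. Rara stood at 10.2 and 10.4 RPKM in WT and 7.74 and 10.2 RPKM in KO, and Rxra at 22.5 and 24.6 RPKM in WT and 31.4 and 21.8 RPKM in KO.

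None of the 3 CYP26 enzymes that clear retinoic acid passed the filter. Cyp26b1, the highest, stood at 0.54 and 0.662 RPKM in WT and 0.917 and 0.822 RPKM in KO, and Cyp26c1 was at or near 0. Of the retinoic acid targets 2 of the 10 in the table were tested. Tgm2, a transglutaminase and one of these, stood at 56.5 and 50.8 RPKM in WT and 53.5 and 48.7 RPKM in KO.

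**Figure D3:**
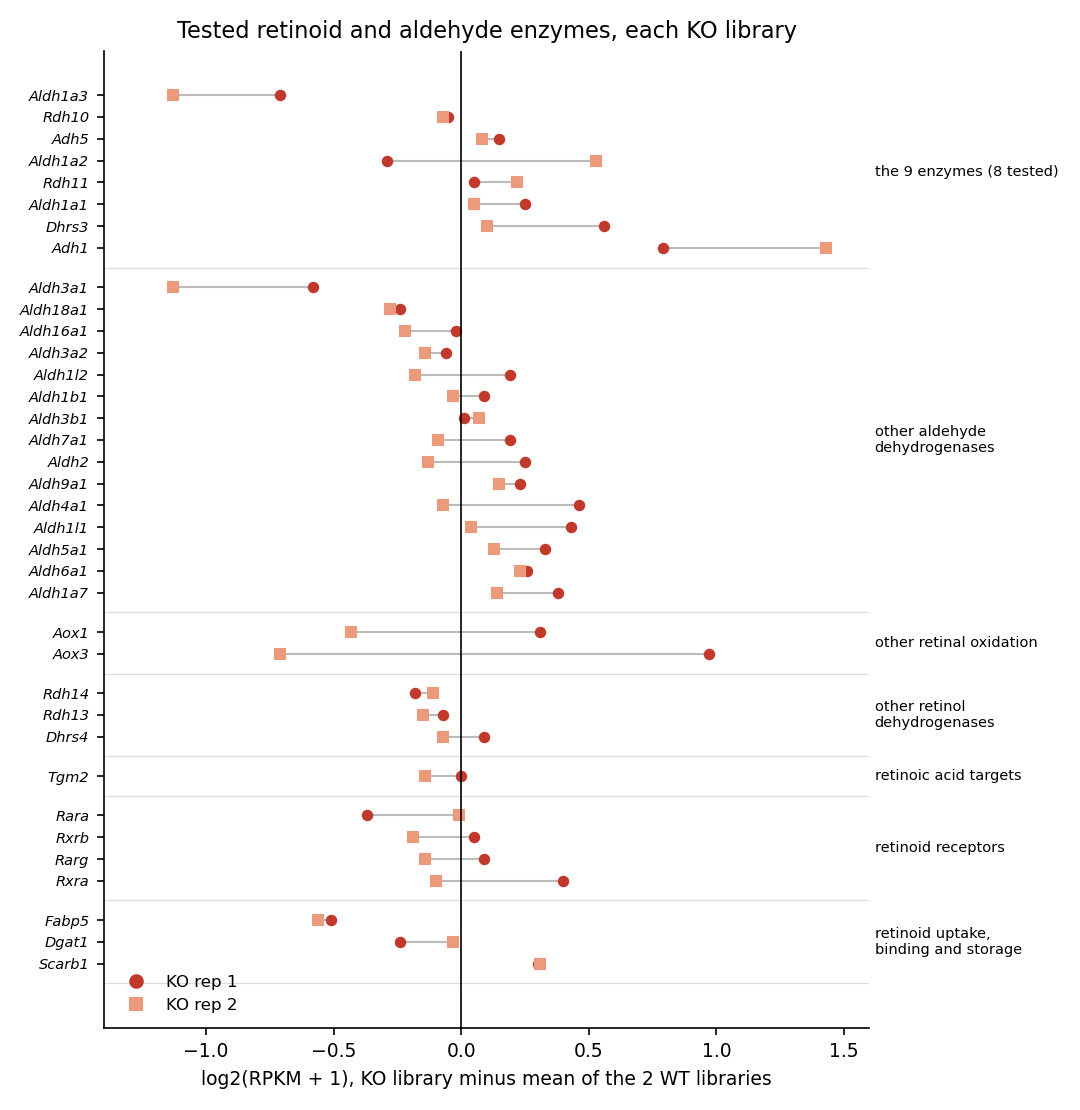
The log2(RPKM + 1) difference of each KO library from the WT mean is plotted for the members and for the tested genes of the wider pathway but 1. The KO libraries differ most from each other at Aox3, with 0.97 and -0.71.

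Genes that followed Adh1 most closely were sought over the 4 libraries as the smallest Euclidean distance between log2(RPKM + 1) profiles centred on their mean. Of 7045 genes compared, with a median distance of 1.24, the nearest were Bhmt at 0.23, Akr1cl at 0.42, Gpcpd1 at 0.44, Akr1c14 at 0.45 and Hao2 at 0.46. Bhmt, which remethylates homocysteine from betaine, stood at 7.69 and 7.61 RPKM in WT and 15.8 and 21.4 RPKM in KO. Akr1cl, of the aldo-keto reductase family, stood at 162.5 and 183 RPKM in WT and 328 and 346 RPKM in KO. Akr1c14, a 3-alpha-hydroxysteroid dehydrogenase, stood at 21.9 and 25.8 RPKM in WT and 28.2 and 60.9 RPKM in KO. Gpcpd1, which splits glycerophosphocholine, and Hao2, a peroxisomal hydroxy acid oxidase, reached their highest level in the second KO library as Adh1 did. The likeness is over 4 libraries, was chosen by this measure and carries no test.

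**Figure D4:**
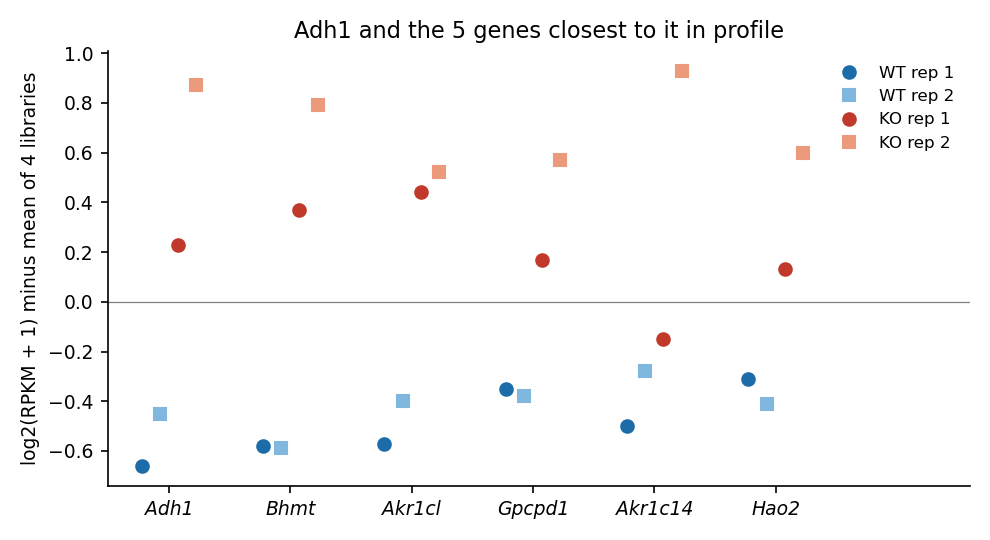
The log2(RPKM + 1) values of Adh1 and the 5 nearest genes are drawn as differences from each gene's mean over the 4 libraries, one symbol per library. In all 6 genes the second KO library is the highest.

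Markers were set beside these values to check the labelled cell type. The 10 Leydig cell markers summed to 1710 and 1528 RPKM in WT and 1800 and 1877 RPKM in KO, with 6 higher and 4 lower, although Cyp17a1, a defining steroidogenic enzyme, reached at most 2.12 RPKM. The markers did not move together. The steroidogenic enzyme gene Hsd3b6 stood at 484 and 460 RPKM in WT and 673 and 820 RPKM in KO, and Hsd3b1 at 323 and 261 RPKM in WT and 410 and 449 RPKM in KO. Insl3, a peptide hormone of Leydig cells, stood lower in KO, at 73.0 and 81.5 RPKM against 164 and 133 RPKM in WT, and Cyp11a1, which makes pregnenolone, at 360 and 299.7 RPKM against 415 and 402 RPKM. The 10 macrophage markers summed to 1378 and 1042 RPKM in WT and 716 and 1135 RPKM in KO, and 8 of 10 were lower. Lyz2 was 70.4% of this sum in the first WT library, and the sum of the second KO library lay between those of WT. Of the lower macrophage markers, only Csf1r and Cd68 did not overlap between genotypes. The 8 endothelial markers were all lower in KO, with sums of 30.4 and 33.6 RPKM in WT and 21.2 and 17.1 RPKM in KO. Among all tested genes, 6662 of 12391 were lower. The endothelial markers Pecam1, Kdr, Tek and Emcn did not pass the filter. Of 8 myoid markers 7 were lower, with sums of 229.0 and 261.8 RPKM in WT and 202.6 and 183.7 RPKM in KO. Acta2 was 89.7% of the myoid sum in the first WT library, and Tagln and Cnn1 of this list did not pass the filter. Fibroblast markers summed to 282 and 315 RPKM in WT and 284 and 227 RPKM in KO. Spermatocyte and spermatid markers summed to 2.83 and 2.14 RPKM in WT and 4.35 and 4.02 RPKM in KO, with 7 of the 10 in the table higher. Only 2 of the 10 reached 1 RPKM in any library. Sertoli cell markers summed to 22.8 and 23.7 RPKM in WT and 19.2 and 16.2 RPKM in KO. Of the 7, 4 were higher and stayed at or below 1.14 RPKM, and 3 were lower, including the most abundant, Aard. Adipocyte markers summed to 1.13 to 1.32 RPKM, with no adipocyte marker at 1 RPKM or more. Mesothelial markers summed to 54.9 to 72.5 RPKM, of which Lrrn4 was 99.5% in the first WT library. The part of other cell types in the differences of the members was not tested.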

How the data were processed

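Gene expression was measured by RNA-seq in Leydig cells of 2 WT and 2 KO libraries, grouped by the genotype in the labels. RNA was extracted with Trizol, per the labels' protocols. The only build given is mm9, per the submitters' processing notes. The aligner, counter and gene models are, in the sources used here, not stated. The deposited files carry 1 unlabelled value for each of 27357 Ensembl IDs. The values the authors deposited were taken as RPKM because, multiplied by the exonic length in GENCODE M21, 90.4% to 90.7% of those above 0 were whole multiples of 1 read within 0.01 reads. The unit is thus inferred. The recovered depth was 13847807 to 19764004 reads. Coordinates are GENCODE M21 on GRCm38, a build other than the one named by the submitters, and 27306 IDs matched a gene.

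The 12391 genes that reached 1 RPKM in 2 or more libraries were compared as log2(RPKM + 1) with limma 3.58.1 in R 4.3.3, with genotype alone, an empirical Bayes trend, two-sided tests and a Benjamini-Hochberg FDR of 0.05. Degrees of freedom were 2 (residual) and 3.08 (prior). The fit was also run on simulated data with normal noise and changes larger than that of Adh1. That run does not speak to changes of the size described for the members. Members and gene lists were chosen with earlier results of these data known. The text names the members, the 2 highest genes of each pathway list, pathway genes at an unadjusted p under 0.05, the 5 genes most like Adh1 with a mean of at least 5 RPKM outside the Gm, Rik and LOC series, and the alcohol dehydrogenase cluster. Of the genes so chosen, 1 is not reported here. Coding sequences were aligned with Biopython 1.88, intervals came from SciPy 1.17.1, tables from pandas 2.3.3 and NumPy 2.4.6, and plots from Matplotlib 3.10.9, all in Python 3.11.15.

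The alternatives were quantile normalization, median-ratio rescaling, a pseudocount of 0.1, a higher filter of 5 RPKM or none, no trend, voom on the recovered reads of 10856 genes, a replicate block and each library left out in turn.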

Additional observations from a re-analysis of the deposited data

How the results depend on the processing

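The log2 difference of Adh1 was positive under all 9 alternatives tried for it and lay between 0.79 and 1.43, both from leaving out a KO library. Aldh1a3 was negative under all 9, between -1.42 with voom and -0.71. For both genes the WT and KO libraries did not overlap, so leaving out a library could not reverse the sign. The constant sign therefore adds no support to either difference. With 2 libraries a group, no statement on a member is firmer than its 4 values, and genes near 1 RPKM carry counting error besides. The number of genes past the FDR ran from 0 to 306 when 1 library was left out (306 without the first KO library, 139 without the second) and was 0 under the other alternatives. The number of wider pathway genes at an unadjusted p under 0.05, 5 in the reported fit, ran from 2 to 13 when 1 library was left out and was 3 with the replicate block. That block came from a suffix in 1 label of each genotype, and the labels do not say whether it marks a shared batch. Deviations of the suffixed libraries correlated at -0.096 across genes, a single value that cannot decide this. The reported fit used genotype alone, the only difference that the labels give, so the libraries were not taken as pairs. At an unadjusted p under 0.05, quantile normalization put 662 genes above WT and 749 below, against 536 and 919. With 1 library left out, values ran from -0.07 to 0.09 for Dhrs4, -0.43 to 0.31 for Aox1, -0.71 to 0.97 for Aox3, -0.13 to 0.25 for Aldh2, -0.10 to 0.40 for Rxra and -0.14 to 0.01 for Tgm2. Without the first KO library Dhrs4 was -0.07, Aox3 -0.71 (limma adjusted p = 0.0347), Aldh2 -0.13 and Rxra -0.10, each with the opposite sign to the reported difference. Aox1 was 0.01 without the second WT library and 0.31 without the second KO library, and Tgm2 was 0.01 without the first WT library. Aox3 was 0.97 without the second KO library (limma adjusted p = 0.0345), and Aldh3a1 was -1.13 without the first (limma adjusted p = 0.0224). Leaving out a library leaves 1 in its group, which is assumed to vary like the pair of the other genotype, so these p-values hold no spread between KO libraries. The cause was not tested.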
